A study of Mus musculus with 2 samples.

Results

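Mir298 and Mir296 are neighbouring microRNA genes at the edge of the imprinted Gnas region of mouse chromosome 2, and they make up 2 of the 2202 microRNA genes counted in this series. The pair was chosen by its unequal ratio between the libraries, so the levels and ratios of both genes are given as descriptions, with no test. MicroRNA-seq was performed on total RNA from hippocampus of females of the strain B6CASTF1/J, 10 days old, which are first-generation hybrids of C57BL/6J and CAST obtained from The Jackson Laboratory. The series holds 1 group of 2 biological replicates, each labelled as a different set of 3 females, and no treatment, mutant or control group. Inserts below 30 nt were sequenced. Reads were not assigned to parental alleles, so imprinting itself was not measured here.

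Gnas encodes the stimulatory G protein alpha subunit, which couples hormone and neurotransmitter receptors to cyclic AMP. Different promoters of this locus are used from the maternal or the paternal chromosome, and Nespas is an antisense non-coding transcript made from the paternal one. In mouse, Mir296 and Mir298 have been described as expressed from the paternal allele, from a long transcript connected with Nespas. A microRNA hairpin is cut to a mature 5p and a mature 3p arm, and bases 2 to 8 of an arm, its seed, do most of the pairing with target messages. Mature miR-296 has been described as raised in human brain endothelial cells by tumour signals and as acting on Nanog in mouse embryonic stem cells. Mature miR-298 has been described as acting on Bace1, the protease that starts amyloid peptide production, in mouse.

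The hairpins are shown because every count below belongs to one of them as a whole: the deposited counts do not separate the 5p arm from the 3p arm. Sequences are RefSeq entries for GRCm38.p6, given 5′ to 3′, with both mature arms in capitals. Both genes had an entry.
Mir298 hairpin: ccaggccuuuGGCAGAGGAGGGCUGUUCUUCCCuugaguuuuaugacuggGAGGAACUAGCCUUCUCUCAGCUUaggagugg
Mir296 hairpin: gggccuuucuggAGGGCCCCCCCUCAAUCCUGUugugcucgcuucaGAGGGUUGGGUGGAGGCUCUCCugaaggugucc

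The mature arms follow with their seeds in capitals, to show that the neighbours do not belong to 1 seed family.
miR-298-5p: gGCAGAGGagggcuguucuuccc
miR-298-3p: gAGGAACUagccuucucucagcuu
miR-296-5p: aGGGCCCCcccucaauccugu
miR-296-3p: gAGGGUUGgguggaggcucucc

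All 4 seeds differed from each other, and none was shared with an arm of another gene among 1738 mature RefSeq sequences. The hairpins of Mir298 (82 nt) and Mir296 (79 nt) had no common stretch longer than 7 nt. The longest stretch that either shared with any other counted microRNA gene, on either strand, was 12 nt. No arm occurred in a further gene among 141767 GENCODE M21 transcripts, on either strand. The arms of Mir296 were rich in G and C, at 66.7% for miR-296-5p and 68.2% for miR-296-3p, against a median of 52.2% over all mature sequences. In Mir298 the 5p arm had 65.2% G and C, and the 3p arm had less than the median. Over whole hairpins the shares were 53.7% for Mir298 and 63.3% for Mir296, with a median of 51.7% over 1005 hairpins.

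Both genes lie on the minus strand of GRCm38 (mm10). Mir298 (ENSMUSG00000065410.1, chr2:174267504-174267585) comes first in the direction of transcription. Mir296 (ENSMUSG00000065521.1, chr2:174267047-174267125) follows after a gap of 378 nt. In GENCODE M21 neither overlaps another gene, so both are annotated as intergenic, outside any exon, intron or UTR. The annotated 3′ end of Nespas (chr2:174281237-174295436, minus strand) lies 13.651 kb upstream of Mir298, and Gnas (plus strand) begins 16.734 kb away on the same side. Gm27591, a predicted microRNA gene on the plus strand 19.508 kb to the other side, had 0 counts in both libraries.

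**Figure D1:**
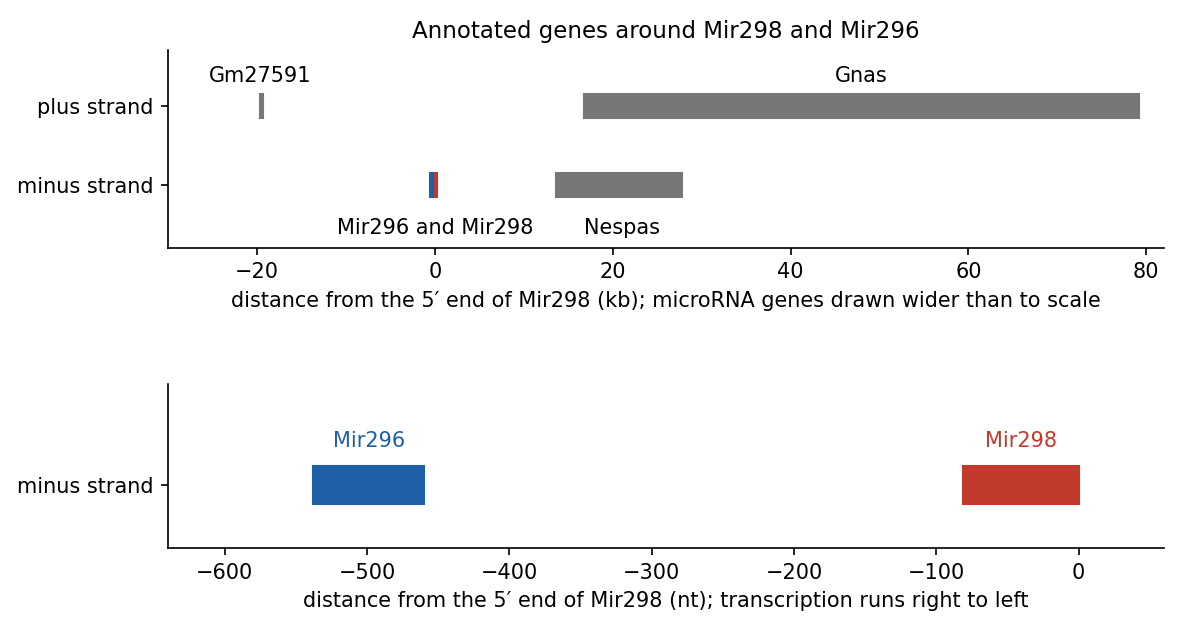
Genes annotated around Mir298 (red) and Mir296 (blue). The upper panel runs in kb and the lower panel in nt from the 5′ end of Mir298, with the strands as rows. Neither gene of the pair overlaps another annotated gene, and Mir298 lies 13.651 kb beyond the 3′ end of Nespas.

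Among reads counted for a gene, Mir298 was one of the most abundant microRNAs in replicate 1 and less abundant in replicate 2, while Mir296 had nearly the same level in both. A further 43.2% of all reads in replicate 1 and 39.3% in replicate 2 matched several places and count for no gene, so the ranks hold for uniquely placed reads. Levels are given as CPM, the sense-strand counts of a gene per 1000000 of those on all microRNA genes, which numbered 5479267 in replicate 1 and 3563226 in replicate 2. Mir298 had 164211 counts in replicate 1 and 26732 in replicate 2, or 29970 and 7502 CPM. It ranked 9 of the 2202 genes in replicate 1 and 28 in replicate 2. Mir296 had 17486 counts in replicate 1 and 12416 in replicate 2, or 3191 and 3484 CPM, and ranked 57 and 53. The mean was 18736 ± 15887 CPM for Mir298 and 3338 ± 207 CPM for Mir296 (SD, n = 2). The SD of Mir298 is close to its mean.

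Counting error was small beside that spread. The exact Clopper-Pearson interval at 95% ran from 29827 to 30113 CPM in replicate 1 and from 7413 to 7592 CPM in replicate 2 for Mir298. For Mir296 it ran from 3144 to 3239 CPM in replicate 1 and from 3424 to 3546 CPM in replicate 2. These intervals cover counting error within 1 library only, and leave out variation between animals and between libraries. It is not known here whether copies of 1 molecule were told from separate molecules by molecular identifiers. The intervals may therefore be too narrow even for counting error.

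**Figure D2:**
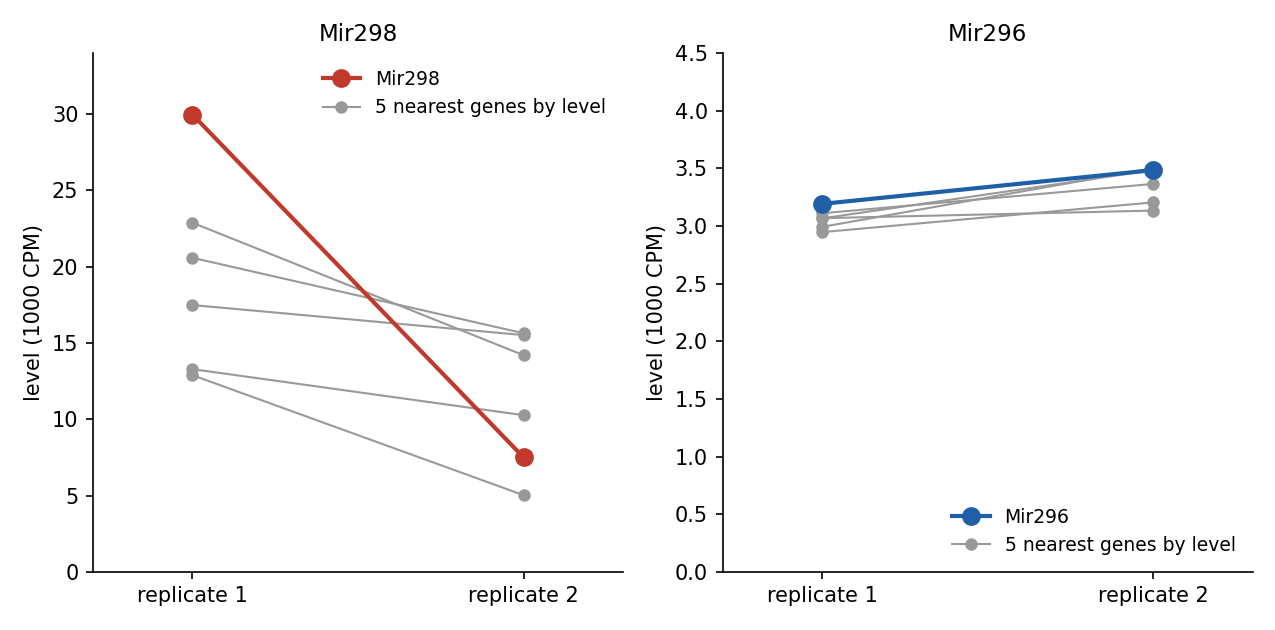
Level of Mir298 (red, left panel) and Mir296 (blue, right panel) in replicate 1 and replicate 2, in units of 1000 CPM, each with the 5 genes nearest to it in level (grey). Each point is 1 library and the lines only join the libraries; Mir298 is the highest of its panel in replicate 1 and next to the lowest in replicate 2, while Mir296 runs level with its neighbours.

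After scaling the libraries with TMM factors, Mir298 was 4.17-fold higher in replicate 1 than in replicate 2 (interval for counting error 4.12 to 4.23), a log2 ratio of 2.06. Mir296 had a ratio of 0.956 (0.934 to 0.979), a log2 ratio of -0.065, beside a median of -0.044 over all 429 genes that reached 10 counts in both libraries, here taken as detected. A difference of at least 2-fold in either direction was found for 12.1% of the detected genes, and one of at least 2-fold higher in replicate 1 for 6.29%. Of these 52 genes, 27 were higher and 25 lower in replicate 1; with library totals in place of TMM factors the split was 22 and 31. Mir298 had the third highest ratio of the detected genes. Of the 22 genes with a mean of at least 10000 CPM, 1 gene, Mir298, differed at least 2-fold. It was chosen by its unequal ratio, and at 7502 CPM in replicate 2 it lay below this cut. Mir30d, with a mean of 8960 CPM and a log2 ratio of 1.42, lay outside the cut. The next highest ratio among these 22 was that of Mir744, a log2 ratio of 0.75, and the lowest was that of Mir149, at -0.57. Their median absolute log2 ratio was 0.23.

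**Figure D3:**
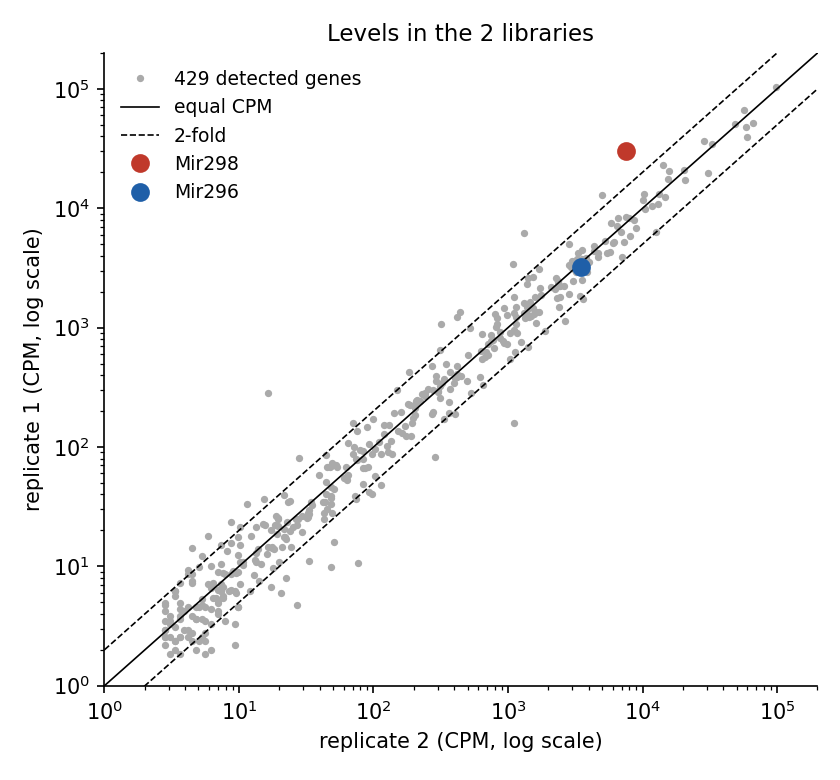
CPM in replicate 1 (vertical) against replicate 2 (horizontal), both on log scales, for the 429 detected genes, with Mir298 in red and Mir296 in blue. The solid line marks equal CPM and the dashed lines a 2-fold difference; Mir298 lies above the upper dashed line at 29970 and 7502 CPM, and Mir296 lies close to the solid line.

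The make-up of the pair therefore differed between the libraries. Mir298 had 9.39 counts for each count of Mir296 in replicate 1 and 2.15 in replicate 2. With counts divided by annotated hairpin length, the ratio was 9.05 in replicate 1 and 2.07 in replicate 2. Inserts below 30 nt cover only part of either hairpin. Mir298 was the higher gene in both libraries and held 90.4% of the pair's counts in replicate 1 (exact interval 90.2% to 90.5%) and 68.3% in replicate 2 (67.8% to 68.7%). Together the neighbours held 3.32% of the sense counts on microRNA genes in replicate 1 and 1.10% in replicate 2.

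The ratio of Mir298 to Mir296 differed 4.36-fold between the libraries, a log2 difference of 2.12 (interval for counting error 2.09 to 2.16). This value does not depend on how the libraries are scaled, because both genes of a pair share 1 library. The same quantity was taken for all 111 pairs of adjacent detected microRNA genes on 1 strand within 10 kb. Their median log2 difference, without its sign, was 0.36, and 21.6% of pairs differed at least 2-fold. Among the 37 pairs with at least 1000 counts for both genes in both libraries, 6 differed at least 2-fold. Mir298 and Mir296 had the largest value of the 111, which is what they were chosen for.

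**Figure D4:**
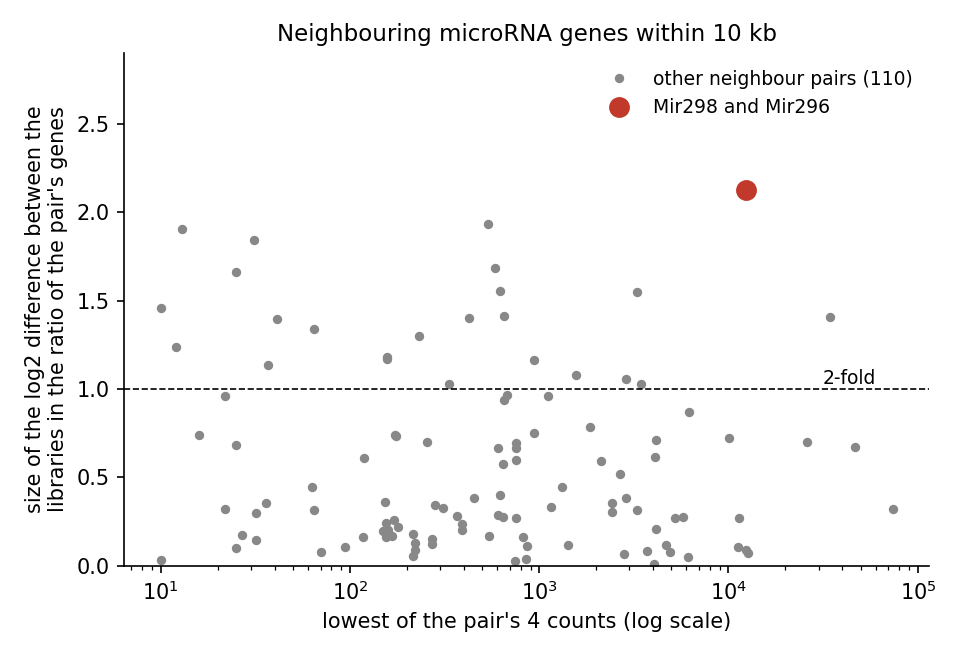
Size of the log2 difference between the libraries in the ratio of 2 neighbouring genes (vertical), against the lowest of the pair's 4 counts on a log scale (horizontal), for 111 pairs. Grey points are the 110 other pairs, the dashed line marks a 2-fold difference, and Mir298 with Mir296 (red) is the highest point at 2.12, with a lowest count of 12416.

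The 4 pairs that came next also had unequal ratios, some at far lower counts. Mir15a had 2989 and 3688 counts in replicates 1 and 2 and its neighbour Mir16-1 had 1652 and 534, a log2 difference of -1.93. For Mir30d over Mir30b the log2 difference was 1.68, from 70640 and 17914 counts of Mir30d and 715 and 582 counts of Mir30b. Mir7220 over Mir6982 gave -1.91 from 47 counts or fewer, and Mir3093 over Mir9-1 gave -1.84, with 129 and 31 counts for Mir9-1. Mir16-1 shares a stretch of 23 nt with Mir16-2, and Mir9-1 one of 33 nt with Mir9-2. The longest stretch shared with another microRNA gene was 13 nt for Mir15a, 16 nt for Mir30d and 18 nt for Mir30b. For Mir298 and Mir296 it was 12 nt. Whether shared stretches bear on the unequal ratios was not tested. How many reads of these genes matched several places was not measured.

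The genes nearest to each neighbour in level were found by the distance over both libraries in log2(CPM + 1). With 2 libraries this likeness is a description of level only. Mir296 had close counterparts. Mir431, a microRNA antisense to Rtl1 in the imprinted Dlk1-Dio3 region, was nearest at a distance of 0.058, with 3066 (replicate 1) and 3484 CPM (replicate 2). Mir337 of the same region followed at 0.063, with 3110 and 3365 CPM. Mir107, Mirlet7c-2 and Mir181c came next, at distances of 0.093 to 0.167. These 5 genes lay between 2946 and 3110 CPM in replicate 1 and between 3133 and 3501 CPM in replicate 2. Mir296, at 3191 CPM, was above all 5 in replicate 1. In replicate 2, at 3484 CPM, it was above Mir337, Mirlet7c-2 and Mir181c, level with Mir431 and below Mir107. Whether this order would hold in further libraries is not resolved by 2.

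Mir298 had no gene as near. Its nearest was Mir744 at a distance of 0.999, with 22880 (replicate 1) and 14199 CPM (replicate 2). Mirlet7e, Mir22 and Mir382 followed at 1.19, 1.26 and 1.31. Mir30d was the fifth, at 1.35, and had the highest ratio of them, with 12892 (replicate 1) and 5027 CPM (replicate 2).

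Detected microRNAs of the other imprinted regions examined had log2 ratios of replicate 1 over replicate 2 up to 1.28. Mir298 was chosen by its unequal ratio, so its higher value does not set these regions apart. The 59 genes of the Dlk1-Dio3 region, made from the maternal chromosome, held 21.4% of the counts in replicate 1 and 22.6% in replicate 2. Of the 51 detected there, 3 were at least 2-fold higher in replicate 1 and 0 were at least 2-fold lower. Among all 429 detected genes, 27 were higher and 25 lower by this measure. The region's median log2 ratio was -0.074. Its most abundant members were Mir127 at 49359 ± 14139 CPM, Mir770 at 33643 ± 1338 CPM, Mir487b at 32842 ± 5631 CPM and Mir433 at 18950 ± 2507 CPM (SD, n = 2). In replicate 1 Mir298 lay below the first 3 of these and above Mir433, and in replicate 2 it lay below all 4. Of the region's 48 neighbour pairs, 6 (12.5%) had ratios that differed at least 2-fold, against 21.6% of all 111 pairs. The largest was that of Mir673 over Mir493, at a log2 difference of 1.55.

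The repeat cluster within Sfmbt2 lies on the same chromosome as the pair. Sfmbt2 has been described as paternally expressed, which was not measured in this tissue. The cluster had 8 of 119 genes detected, and 100 were listed at 0 in both libraries. A read with several matching places was not counted for any gene, so those zeros do not give a level. The 8 genes had a median log2 ratio of 0.24 and none passed 2-fold, with Mir467d, the most abundant, at 1376 ± 166 CPM (SD, n = 2). Single microRNAs of 3 further imprinted genes were also looked up. Mir335, within the paternally expressed Mest, stood at 2595 (replicate 1) and 2292 CPM (replicate 2), a little below Mir296. Mir483, within Igf2, stood at 193 and 143 CPM. Mir675, made from H19, had 1 count in each library.

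MicroRNAs described beside these genes in other work were found at a range of levels. Mir134, reported with miR-296 in mouse embryonic stem cells, stood at 1614 (replicate 1) and 1318 CPM (replicate 2). Mir470, from the same reports, had 26 and 0 counts, and the 0 allows a level of up to 0.842 CPM. Of 7 genes reported to act on Bace1 in mouse, rat or human work, 2 had the highest levels in uniquely placed reads. These were Mir107 at 3246 ± 360 CPM and Mir328 at 3094 ± 337 CPM (SD, n = 2), both below Mir298 in either library. Mir29a stood at 943 (replicate 1) and 1874 CPM (replicate 2), and Mir195a at 1459 and 928 CPM. Mir29b-1, Mir9-1 and Mir124a-1 had 154 counts or fewer in each library. They share stretches of 25, 33 and 32 nt with Mir29b-2, Mir9-2 and Mir124a-2. Reads with several places are not counted, so these low counts do not give the level of the mature microRNAs.

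Marker microRNAs of 8 cell types were summed in each library. In bulk tissue, fewer cells of a type and less RNA per cell cannot be told apart. All 6 neuronal markers were detected, and together they had 21485 (replicate 1) and 22096 CPM (replicate 2). That sum rests on its abundant members, led by Mir132 with a log2 ratio of 0.24. Mir212 had a log2 ratio of -0.84, and Mir153, with 58 counts in replicate 1 and 272 in replicate 2, one of -2.78, larger in size than that of Mir298. The 3 markers of endothelium and vessel wall, led by Mir126a, had 11756 and 11138 CPM. The 8 markers of choroid plexus and ependyma, 6 of them detected, had 6319 and 6246 CPM, and 3 neuroendocrine markers had 2937 and 3689 CPM. The 3 microglial markers had 1889 and 1903 CPM, the 2 oligodendrocyte markers 1543 and 2024 CPM, and the 5 blood markers 102 and 126 CPM. Single detected markers did not all follow the sum of their list. Their log2 ratios ran from -0.38 to 0.42 for microglia, -0.65 to 0.075 for oligodendrocytes and -0.74 to 0.60 for blood. The range was -0.93 to -0.053 for neuroendocrine markers and 0.12 to 0.22 for endothelium and vessel wall. For choroid plexus and ependyma it was -0.31 to 0.37. The log2 ratio of the 7 sums above, replicate 1 over replicate 2, ran from -0.39 to 0.078. It was taken from CPM without TMM factors, unlike the ratios of single genes. The muscle list had 40.2 (replicate 1) and 97.4 CPM (replicate 2), nearly all from Mir206. Mir133a-1 and Mir1a-1 were listed at 0, but they share stretches of 31 and 28 nt with Mir133a-2 and Mir1a-2. Reads with several places are not counted, so these zeros give no level. The part of cell composition in the Mir298 difference was not tested.

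The strand and the base composition were compared as well. Neither gene had an antisense count in either library, which was also so for 391 (91.1%) of the detected genes, these included. Over all microRNA genes antisense counts made up 5.63% ± 0.112 of sense plus antisense counts (SD, n = 2), and 99.93% of them in replicate 1 and 99.95% in replicate 2 lay on genes that overlap another microRNA gene of the other strand. For Mir298 the 0 allows an antisense share of up to 0.00183% in replicate 1 and 0.0112% in replicate 2, and for Mir296 up to 0.0172% and 0.0242%. The count made without regard to strand was equal to the sense count for both genes in both libraries. Across 365 detected genes with a RefSeq hairpin, the G and C content of the hairpin and the log2 ratio of replicate 1 over replicate 2 had a Pearson r of -0.047 and a Spearman rho of -0.057, a description across genes measured in the same libraries.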

How the data were processed

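The authors deposited raw read counts per microRNA gene, 1 file a library, without pooling replicates. The build (mm10) and annotation (GENCODE M21) come from the notes deposited with each sample; the aligner, counting program and any filters on reads were not given in the sources used here. The strand column with the larger total over gene rows was taken as sense. The 4 rows without a gene, which hold 63.6% and 62.4% of 15058588 and 9483409 reads in replicates 1 and 2, stayed out of library sizes. They include reads that match several places, at 43.2% and 39.3%.

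Levels are CPM of the sense counts. Detected means at least 10 counts in each library. Ratios of single genes are replicate 1 over replicate 2, with 0.5 counts added and TMM factors from edgeR 4.0.16 (0.979 and 1.02). Ratios of marker sums use CPM, without TMM factors or added counts. Intervals at 95% are Clopper-Pearson, and for pair ratios Wald on the log scale; limits for a 0 use 3 counts. The ratio and pair calculations were tested on simulated counts that held counting error only. That test does not cover variation between animals or libraries. Figures and intervals used Python 3.11.15, scipy 1.17.1 and matplotlib 3.10.9, and R 4.3.3 was used for scaling.

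Samples were grouped by the labels, which give 1 group, so no comparison between conditions and no test was made. The members and gene lists were chosen with earlier results of these data known. Named genes are the pair, the 5 genes nearest in level to each, genes opposite a member or sharing a seed (none was found), the up to 4 most abundant genes of the imprinted and reported lists (of the Bace1 list all 7 are given), and the 5 pairs with the largest difference in ratio. Outside this rule, and partly after their values were seen, the text also names Gm27591 for its place, Mir149, Mir673 and Mir493 as extremes, marker genes, and the genes that share stretches with those named. Markers describe enrichment known from other work. Alternatives were DESeq2 1.42.0 size factors or library totals, other count minimums, distances and denominators, no pseudocount, counts without regard to strand, and leaving out a library.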

Additional observations from a re-analysis of the deposited data

How the results depend on the processing

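No alternative changed the sign of a ratio. The level of Mir298 was 7502 CPM without replicate 1 and 29970 CPM without replicate 2, and that of Mir296 was 3484 and 3191 CPM; with 2 libraries such a value always lies within 1 SD of the mean. Per 1000000 of all reads, the mean level was 6862 for Mir298 and 1235 for Mir296, and in counts without regard to strand 19911 and 3549 CPM, since the denominator itself changes. With DESeq2 size factors the log2 ratio, replicate 1 over replicate 2, was 2.10 for Mir298 and -0.020 for Mir296, and with library totals 2.00 and -0.13; only the scaling differs between these. Counts without regard to strand and no pseudocount could not move the ratio of the pair, since neither gene has antisense counts and all 4 counts are high. Pairs that differed at least 2-fold numbered 43 of 135 (31.9%) with a minimum of 1 count and 14 of 64 (21.9%) within 1 kb, where fewer pairs enter. Detected genes that differed at least 2-fold numbered 159 of 670 with a minimum of 1 count and 21 of 267 with a minimum of 100. No paired analysis was possible because the series has 1 group. With 2 libraries, the spread between them and not the depth limits what is known of Mir298.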

Other observations

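Chosen after its values were seen, 1 mature sequence of another gene shares bases 2 to 7, but not base 8, with an arm of the pair. It is miR-5621-3p, from Mir5621 on chromosome 11, shown here with the 6 shared bases in capitals for comparison with miR-296-5p.
miR-5621-3p: uGGGCCCuccagaccucaugc
Mir5621 had 15 counts in replicate 1 and 2 in replicate 2, against 17486 and 12416 for Mir296. It is also 1 of the 2 genes that share a stretch of 12 nt with the Mir296 hairpin, the other being Mir3071.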
